A study of Homo sapiens with 2 samples.

Results

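The 10 genes described here belong to the integrated stress response and the unfolded protein response: ATF4, DDIT3, ASNS, CHAC1, TRIB3, SESN2, PSAT1, DDIT4, HERPUD1 and XBP1. They were taken from a list of symbols, and each matched 1 of the 62700 genes of the deposited gene table. In the deposited transcript table they had 64 of 251955 transcripts. The genes were chosen by symbol with their reads and TPM in these libraries already known, among them that the tables disagree for ATF4 and ASNS. Their levels and that disagreement are therefore a description, with no test.

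The libraries were 2 replicates of 1 group, made from the polyadenylated RNA of TCam-2 cells transduced with a FLAG-tagged DDX53 construct. The established human line TCam-2 was derived from a seminoma, a germ cell tumour of the testis, and DDX53 is a DEAD-box RNA helicase gene. Both libraries carry the construct, and the labels name neither its promoter nor a selected clone. Cells with a GFP construct and untransduced cells served the study as controls; they were not analysed here, so no value below is an effect of DDX53. The labels do not say whether the replicates are separate cultures, and the spread between them may be technical.

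Reads in genes numbered 24137664 in replicate 1 and 22198929 in replicate 2. Levels are given as CPM, the reads of a gene scaled to the library's total over all genes. Detection required 1 CPM in each library, which 13604 genes reached. DDX53 itself was at 6.05 CPM in replicate 1 and 6.62 CPM in replicate 2. The 6 genes listed as seminoma markers were all detected, from KIT at 67.7 and 68.1 CPM to POU5F1 at 1891 and 1921 CPM. SOX2, a marker of embryonal carcinoma, had 24 reads in each library, 0.994 CPM in replicate 1 and 1.08 CPM in replicate 2. It thus missed the detection threshold narrowly, and in replicate 1 only. The other listed markers of that tumour were detected. DNMT3B was at 124 and 98.4 CPM, and GDF3 at 7.46 and 6.40 CPM, in replicates 1 and 2. The blood cell genes PTPRC and CD3E had 0 reads in both libraries, while CD14 had 10 reads in replicate 1 and 18 in replicate 2. Of the listed Sertoli and Leydig cell genes, AMH was detected, at 6.01 and 5.81 CPM in replicates 1 and 2. INHA was at 1.45 and 0.856 CPM, STAR had 4 and 0 reads, and CYP17A1 had 0 and 1.

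When cells lack amino acids, hold unfolded protein in the endoplasmic reticulum (ER) or lack haem, kinases phosphorylate the initiation factor eIF2. Translation then falls in general, while that of ATF4 rises, because short reading frames upstream of its coding sequence are bypassed. ATF4 is a basic leucine zipper (bZIP) transcription factor that pairs with C/EBP proteins and activates genes of amino acid supply, redox balance and cell fate. In a parallel arm, the ER sensor IRE1 cuts a short intron out of XBP1 messenger RNA in the cytoplasm, which changes the reading frame and yields the active factor. The level of an mRNA therefore does not give the level of active ATF4 or XBP1 protein.

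The XBP1 intron can be read from the annotation, and it is shown because it tells the precursor transcript from the active one. Comparing GENCODE 29 transcripts, XBP1-202 lacks 26 bases that lie inside an exon of XBP1-201, at chr22:28796122-28796147 (GRCh38, minus strand). They fall within the coding sequence, and since 26 leaves a remainder of 2 on division by 3, their loss shifts the frame. The coding sequence is 783 bases in XBP1-201 and 1128 bases in XBP1-202. Capitals mark the 26 bases as the annotation places them, with 20 bases of coding sequence on either side. The same short run of bases stands just before the capitals and again at their end. Other placements of the 26 bases therefore leave the same joined sequence, and the capitals need not mark the exact cut sites.
XBP1-201: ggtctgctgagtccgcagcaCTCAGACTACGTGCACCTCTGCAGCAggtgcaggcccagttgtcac
XBP1-202: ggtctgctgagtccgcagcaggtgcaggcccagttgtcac

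Promoter windows from RefSeq (GRCh38.p14; 300 bases, from 250 before to 50 after each start site) matched all 10 genes. They were searched on both strands for the C/EBP-ATF response element (CARE, TGATGNAA), bound by ATF4 with C/EBP partners. The ER stress response element (ERSE, CCAAT and CCACG with 9 bases between them) and the XBP1 element core (UPRE, TGACGTG) were searched as well. A CARE match lay in the windows of ASNS, CHAC1 and HERPUD1, 3 of 10 genes, beside 4.46% of all 27303 genes with a window and 2.67% of the 10414 detected ones. An ERSE match lay in the window of XBP1, beside 0.0916% of all genes. A UPRE core was in 0 of the 10, beside 2.40% of all genes. A second ER stress element (ERSE-II, ATTGG and CCACG with 1 base between them), added after these searches, matched HERPUD1 and 0.0696% of all genes. None of the matches shown overlapped another. A match is a description of letters and not a bound site, and sites farther from the start were not searched. Each site is shown on its own strand, as 30 bases with the match in capitals.
ASNS, chr7:97872458-97872487, minus strand: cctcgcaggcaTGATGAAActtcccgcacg
CHAC1, chr15:40953251-40953280, minus strand: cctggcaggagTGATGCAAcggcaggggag
HERPUD1, chr16:56931955-56931984, minus strand: tgggcacgggcTGATGCAAcccgccgcgtc
HERPUD1 ERSE-II, chr16:56932015-56932044, plus strand: ccggacgccgATTGGGCCACGttgggagag
XBP1 ERSE, chr22:28800598-28800627, minus strand: cgctggCCAATCGCGGAGGGCCACGaccgt

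In the 3 CARE matches the ninth base was C, as a search for TGATGNAAC found the same 3 genes. The form TGATGNAAT was in 0 of the 10 genes, beside 1.22% of all genes. Where a match lay in the windows of more than 1 start site, its position is given from the farthest of them. So measured, the match began 68 bases upstream in ASNS, which has 2 windows, on the strand of the gene. In CHAC1 and HERPUD1 it was on the opposite strand, with its outer end 209 and 176 bases upstream.

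All 10 genes were detected in both libraries. Together they held 32831 reads in replicate 1 (1360 CPM) and 31921 reads in replicate 2 (1438 CPM). ATF4, PSAT1 and TRIB3 held 77.7% of these reads in replicate 1 and 78.3% in replicate 2. At the other end, ASNS had 38 and 36 reads.

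ATF4 (ENSG00000128272.18) lies on the plus strand of chromosome 22, from 39519695 to 39522685 in GENCODE 29. Its 10927 reads in replicate 1 gave 453 CPM, with a 95% Wilson interval of 444 to 461. Its 10638 reads in replicate 2 gave 479 CPM, with an interval of 470 to 488. It was the highest of the 10 and number 322 of all 62700 genes by mean CPM. The intervals of the libraries did not overlap, replicate 2 being the higher. Without molecular identifiers, such intervals describe counting error alone.

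DDIT3 (ENSG00000175197.13), which encodes CHOP, a bZIP factor that promotes cell death under lasting ER stress, lies on the minus strand of chromosome 12 from 57516588 to 57521737. It was at 19.8 CPM in replicate 1 (95% Wilson interval, 18.1 to 21.6) and 24.1 CPM in replicate 2 (22.1 to 26.2). TRIB3 (ENSG00000101255.12), a pseudokinase that dampens ATF4 and CHOP activity, lies on the plus strand of chromosome 20 from 362835 to 397559. TRIB3 was at 310 CPM in replicate 1 and 321 CPM in replicate 2, with intervals that overlapped. DDIT3 was therefore low beside TRIB3 in both libraries, and it alone of this pair had intervals apart.

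CHAC1 (ENSG00000128965.13) encodes an enzyme that degrades glutathione and lies on the plus strand of chromosome 15 from 40952962 to 40956519. It was at 26.1 CPM in replicate 1 and 27.0 CPM in replicate 2. SESN2 (ENSG00000130766.5), a leucine sensor that restrains mTORC1, lies on the plus strand of chromosome 1 from 28259527 to 28282491. SESN2 was at 46.4 and 48.0 CPM in replicates 1 and 2. DDIT4 (ENSG00000168209.6), also known as REDD1, restrains mTORC1 through the TSC complex and lies on the plus strand of chromosome 10 from 72273920 to 72276036. DDIT4 was at 63.4 CPM in replicate 1 and 61.7 CPM in replicate 2. For each of these 3 genes the Wilson intervals of the libraries overlapped.

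PSAT1 (ENSG00000135069.14), the transaminase of serine synthesis, lies on the plus strand of chromosome 9 from 78297143 to 78330093. It was at 294 CPM in replicate 1 (95% Wilson interval, 287 to 301) and 326 CPM in replicate 2 (318 to 333), and these intervals did not overlap. ASNS (ENSG00000070669.17), asparagine synthetase, lies on the minus strand of chromosome 7 from 97852118 to 97872542. Its level in the gene table was 1.57 CPM in replicate 1 (1.15 to 2.16) and 1.62 CPM in replicate 2 (1.17 to 2.24), just above the detection threshold. By mean CPM, PSAT1 was number 541 and ASNS number 13011 of all 62700 genes.

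HERPUD1 (ENSG00000051108.15), a membrane component of ER-associated degradation, lies on the plus strand of chromosome 16 from 56932048 to 56944863. It was at 44.0 CPM in replicate 1 and 47.9 CPM in replicate 2. XBP1 (ENSG00000100219.17), the transcription factor of the IRE1 arm, lies on the minus strand of chromosome 22 from 28794555 to 28800597. XBP1 was at 102 CPM in both libraries, 102.5 in replicate 1 and 102.2 in replicate 2, the smallest log2 difference among the 10. The plot of levels shows each gene with its counting interval.

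**Figure D1:**
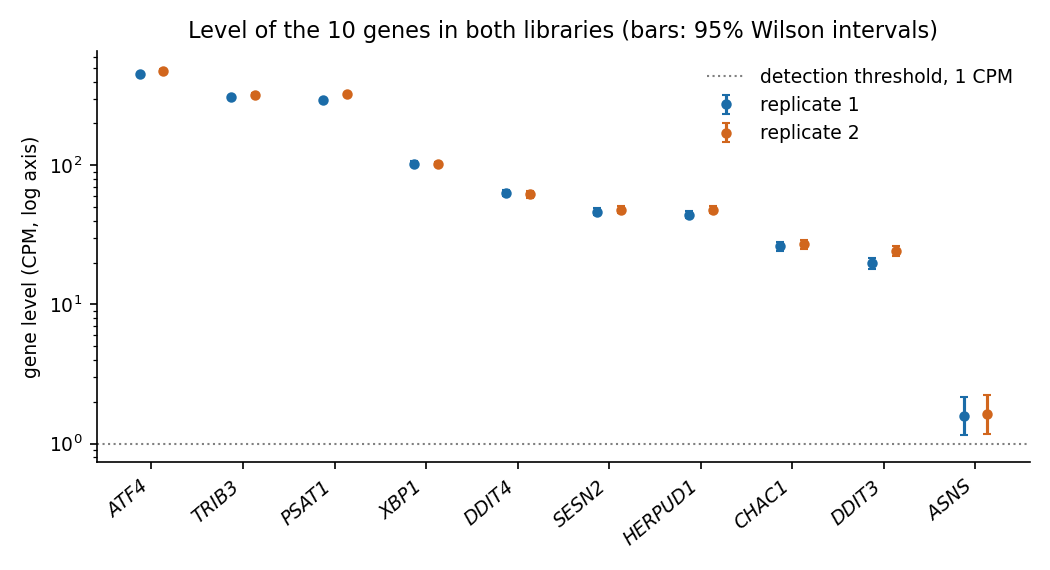
Level of each gene (CPM, log axis) in replicate 1 (blue) and replicate 2 (orange), with bars for the 95% Wilson interval of the read count and a dotted line at the detection threshold of 1 CPM. ATF4, TRIB3 and PSAT1 lie between 294 and 479 CPM, 6 genes lie between 19.8 and 102.5 CPM, and ASNS lies at 1.57 and 1.62 CPM.

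Because longer transcripts yield more reads, genes were ordered by CPM per kilobase of merged exons. ATF4 came first with 185 ± 7.46 CPM per kilobase (SD, n = 2), followed by PSAT1 with 142 ± 10.2, TRIB3 with 91.8 ± 2.28, XBP1 with 33.8 ± 0.0670 and DDIT4 with 30.4 ± 0.604. DDIT3 with 16.8 ± 2.35, SESN2 with 13.7 ± 0.314, CHAC1 with 12.9 ± 0.303, HERPUD1 with 8.92 ± 0.534 and ASNS with 0.359 ± 0.00752 completed the order. The order was the same in each library alone, and no pair of neighbours had libraries that overlapped. Counting intervals did overlap between XBP1 and DDIT4, DDIT3 and SESN2, and SESN2 and CHAC1, so these neighbours were not separated at this depth. Among detected genes with an annotated length, 98.6% were below ATF4 on this scale and 4.39% were below ASNS.

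The transcript table gave another order. It holds TPM, transcript abundances that are already per length, and they were summed per gene. TRIB3 then led with 204 ± 10.5 TPM (SD, n = 2), and PSAT1 followed with 197 ± 12.1. ASNS was the next with 141 ± 10.8 TPM, and ATF4 closed the order with 7.17 ± 1.71 TPM. The TPM of TRIB3 and PSAT1 overlapped between libraries, as did those of DDIT4 and DDIT3, and those of DDIT3 and HERPUD1. Of the 10 genes 5 kept their place: PSAT1, XBP1, DDIT4, DDIT3 and CHAC1. ATF4 moved from the first place to the last, and ASNS from the last to the third.

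To put both tables on 1 scale, the CPM of each gene was predicted from TPM times transcript length. For 8 of the 10 genes the reads were close to the prediction, with log2 ratios of reads to prediction from -0.35 to 0.16 in replicate 1 and from -0.40 to 0.14 in replicate 2. DDIT3 had the lowest of these in both libraries. The background was 13211 detected genes found in both tables with TPM above 0 in both libraries. Detected genes listed at 0 TPM in a library were left out of it, and so of the ranks and shares below. Over the 13211 genes the median ratio was 0.14 in each library, and in replicate 2 the middle 90% lay between -0.69 and 1.52.

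ATF4 departed upwards. TPM predicted 8.03 CPM in replicate 1 and 11.3 CPM in replicate 2, so the reads were 56.4 and 42.3 times the prediction, number 36 and number 46 from the top of the 13211 genes. At the length of its transcripts, the reads correspond to 336 and 355 TPM, against the 5.96 and 8.38 TPM in the table. In both libraries the transcript table thus placed ATF4 far below where the gene table placed it.

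ASNS departed downwards. TPM predicted 161 CPM in replicate 1 and 183 CPM in replicate 2, which is 102 and 113 times what was counted, number 11 and number 6 from the bottom. The table lists 134 and 149 TPM for ASNS, whereas its reads correspond to 1.31 and 1.32 TPM. Reads and prediction were over 4-fold apart in both libraries for 2 of the 10 genes, beside 4.3% of the 13211 genes. The reads were above the prediction for 1 of the 10, beside 2.79% of all, and below it for 1, beside 1.51%. Since the disagreement of ATF4 and ASNS was known when the genes were chosen, nothing is read from these counts.

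**Figure D2:**
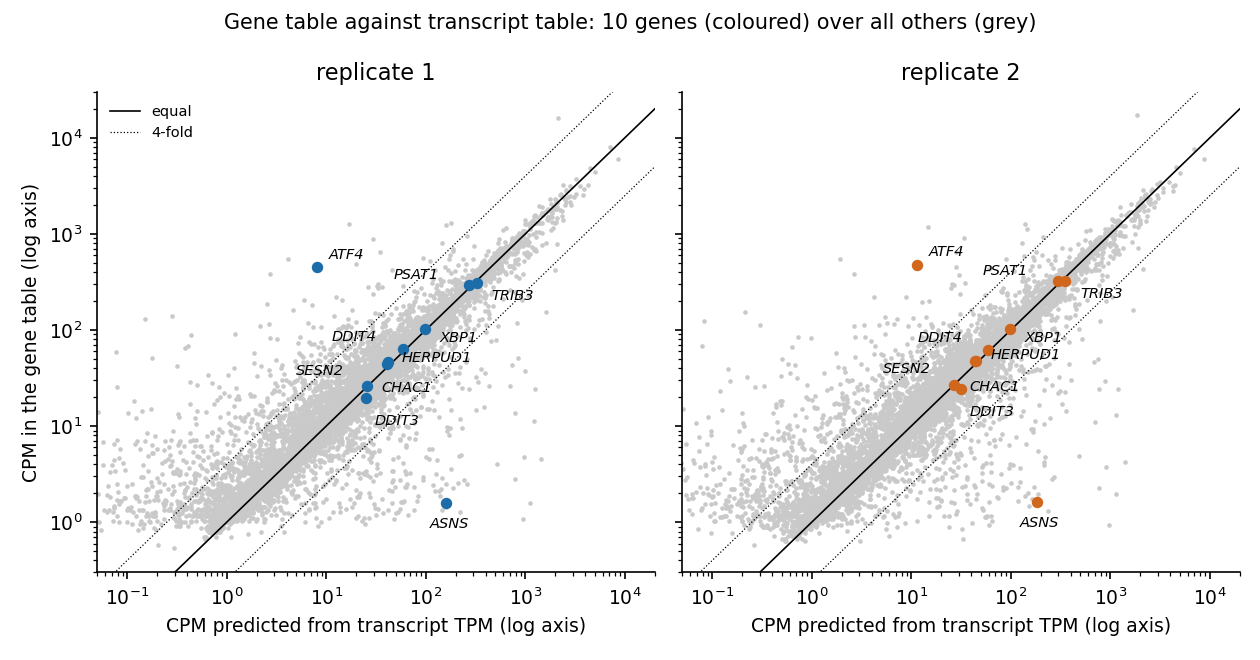
CPM in the gene table against CPM predicted from TPM times transcript length (both log axes), for replicate 1 (left) and replicate 2 (right), with the 10 genes coloured, other genes averaging 1 CPM or more in grey, equality as a solid line and 4-fold as dotted lines. ATF4 lies 56.4 and 42.3 times above equality, ASNS lies 102 and 113 times below it, and the other 8 genes lie between the dotted lines.

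Values that bear on ASNS come from the annotation. On the same strand lies AC079781.5 (ENSG00000284707), a non-coding locus from 97851688 to 97972985 on chromosome 7, whose exons contain 1985 of the 4455 merged exon bases of ASNS. The abundant ASNS transcripts lay almost wholly in the shared bases: 100% of ASNS-214, 99.0% of ASNS-205, 98.9% of ASNS-202 and 84.3% of ASNS-201. Weighted by TPM and length, 96.6% of ASNS transcript sequence was shared in each library. AC079781.5 itself had 0 reads in replicate 1 and 1 read in replicate 2, and 5.55 and 2.76 TPM. How the authors' counter treated reads in shared exons is not given in the sources used here, and the part of the overlap in the low count was not tested.

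ATF4 shares 0 exon bases with another gene on its strand. Its 4 pseudogenes, ATF4P1 to ATF4P4, had between 0 and 3 reads in a library, and the 3 of them with a matched transcript had at most 0.0594 TPM. All 3 ATF4 transcripts of GENCODE 29 are in the transcript table. That table also holds 50288 transcripts that GENCODE 29 lacks, with 52130 TPM in replicate 1 and 52424 TPM in replicate 2, and of these 51 and 52 were above 100 TPM. They have no gene here, so whether any belongs to ATF4 was not tested. Of the ASNS pseudogenes, ASNSP1 had 6.41 and 7.74 TPM. Under its 2 identifiers it had 1 and 12 reads in replicate 1 and 0 and 13 in replicate 2.

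Transcript use was then described for each gene, with the share of its summed TPM. The reads behind each transcript are unknown, and intervals are left out. The leading transcript was the same in both libraries for all 10 genes, and it held over 50% in both libraries in 8 of them. SESN2 had 1 transcript. In TRIB3, DDIT4, CHAC1, PSAT1 and XBP1 the leading transcript held at least 92.5% in each library, and in ATF4 it held 90.3% and 89.9% of the small TPM listed. For CHAC1, only 3 of the 5 transcripts of GENCODE 29 were matched in the transcript table. The coding models CHAC1-202 and CHAC1-205 were not, so its share does not count them.

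In DDIT3, DDIT3-201 held 66.5% in replicate 1 and 67.3% in replicate 2. DDIT3-202 followed with 17.9% and 17.2%, and DDIT3-205 with 12.3% and 15.0%. All DDIT3 transcripts of the table are annotated as protein-coding.

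The leading share differed most between the libraries in HERPUD1. HERPUD1-201 held 53.0% of its TPM in replicate 1 and 33.5% in replicate 2. The transcript HERPUD1-219, annotated as processed and without a coding sequence, held 32.9% and 26.5%, and the coding HERPUD1-203 held 6.88% and 18.0%. HERPUD1-206 was listed at 0 in replicate 1 and at 4.25 TPM in replicate 2. HERPUD1-201 was thus above HERPUD1-219 in both libraries, but by less in replicate 2.

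ASNS had 8 transcripts above 0 in both libraries, the most of the 10 genes. ASNS-214 led with 41.5% in replicate 1 and 44.9% in replicate 2, followed by ASNS-205 with 22.4% and 15.4%, ASNS-202 with 17.7% and 18.1%, and ASNS-201 with 11.5% and 14.01%. In replicate 2, ASNS-205 and ASNS-201 were thus close to each other. The transcript ASNS-213, annotated for nonsense-mediated decay, held 0.973% and 1.14%.

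Among the XBP1 transcripts of the table that span the 26-base intron shown above, most of the TPM was in those that keep it. These had 77.7 TPM in replicate 1 and 77.4 TPM in replicate 2. XBP1-202, which lacks them, had 1.22 and 1.25 TPM. Its share was 1.54% in replicate 1 and 1.58% in replicate 2, a mean of 1.56% ± 0.0280 (SD, n = 2). XBP1-202 is annotated with 1131 bases, against 1850 bases in XBP1-201. GENCODE 29 has another coding model, XBP1-207 with 1794 bases, which keeps 2 of the 26 bases as they are placed in XBP1-202. Because of the repeat at the ends of the 26 bases, this does not tell whether the joined sequences differ, and they were not compared. XBP1-207 was not matched in the transcript table, so the share rests on XBP1-202 alone and does not count XBP1-207. Reads were not available at the junction, so the bearing of either model on the share was not tested.

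**Figure D3:**
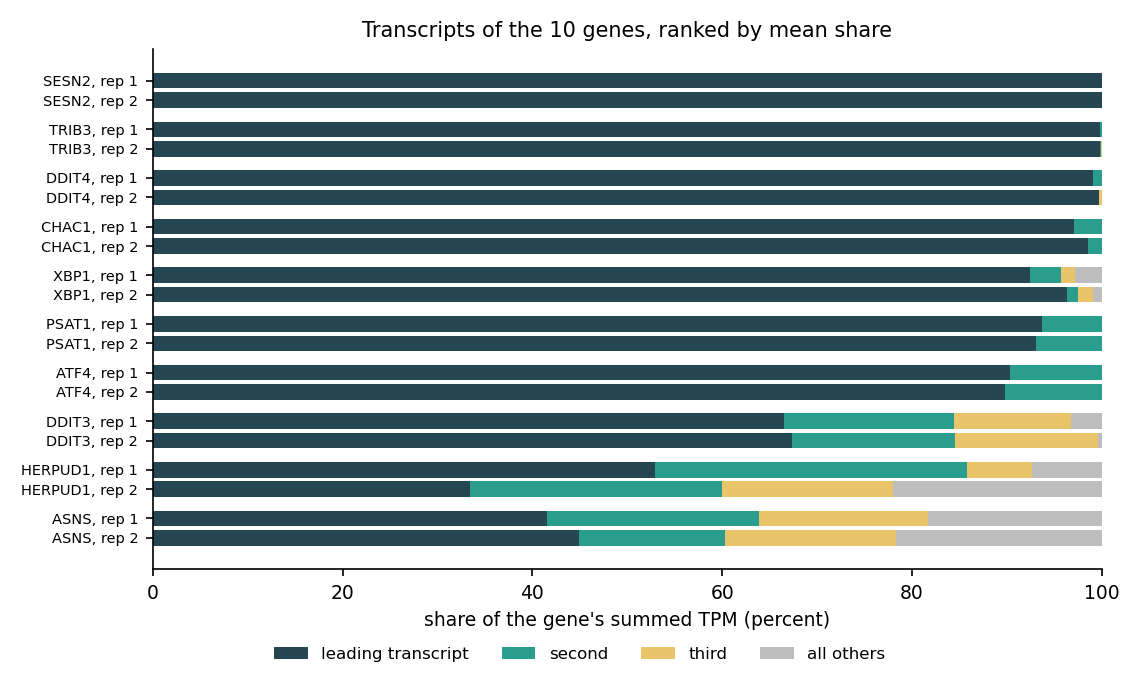
Share of each gene's summed TPM (percent) in its leading transcript, the second, the third and all others, for each library. A single transcript fills nearly the whole bar in SESN2, TRIB3, DDIT4, CHAC1, XBP1 and PSAT1, whereas in HERPUD1 the leading share was 53.0% and 33.5%, and in ASNS it was 41.5% and 44.9%.

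Leaders upstream of the coding sequence were compared, since upstream start codons are the means by which ATF4 and CHOP escape the block of translation. For each detected gene, ATG triplets were counted in the leader of its most abundant coding transcript in GENCODE 29. ATF4-201 had the longest leader of the 10 with 882 bases and 7 ATG, and 2 of these open frames that run past the main start codon. For ATF4 this choice of transcript rests on the small TPM listed, which lay far below its reads. ATF4-202, with 1419 bases against 2019 in ATF4-201, was listed at 0 TPM in both libraries, and its leader was not counted. DDIT3-201 had 180 bases and 3 ATG, 1 of them with such an overlapping frame. TRIB3-201 had 553 bases and 3 ATG, and SESN2-201 had 321 bases and 1 ATG, with 0 overlapping frames in either.

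The other 6 genes had 0 upstream ATG. Their leaders ranged from 20 bases in CHAC1-204 to 201 bases in DDIT4-201. Among 12177 such transcripts of detected genes, 49.3% had an upstream ATG, 15.9% had an overlapping frame and the median leader was 173 bases. The 4 of 10 genes with an upstream ATG were therefore near the background share, while 98.1% of leaders were shorter than that of ATF4-201. These counts describe the annotated sequence and not its translation.

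The libraries were compared with each other by an exact binomial test per gene (edgeR, Benjamini-Hochberg adjustment over all 15299 genes tested). The test sets the libraries against counting noise and compares no conditions. It called 13.1% of all genes tested, 6.78% of them higher and 6.35% lower in replicate 2. Of the 10 genes 3 were called, all higher in replicate 2, and 0 were called lower.

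The log2 difference in CPM + 1, replicate 2 against replicate 1, was 0.27 for DDIT3 (edgeR exact binomial test, adjusted p = 0.0146). For PSAT1 it was 0.15 (edgeR, adjusted p = 8.6e-09) and for ATF4 it was 0.08 (adjusted p of 1.3e-04). TRIB3 missed the threshold with 0.05 (adjusted p of 0.0914), as did HERPUD1 with 0.12 (adjusted p of 0.178). The smaller change of ATF4 passed where the larger one of HERPUD1 did not, and ATF4 had 10927 and 10638 reads against 1063 and 1064 for HERPUD1. The other 5 genes lay between -0.04 and 0.05. The median over the 10 was 0.05, beside -0.01 over the 13898 genes averaging 1 CPM or more, and 8 of the 10 were higher in replicate 2, beside 6643 of those 13898.

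**Figure D4:**
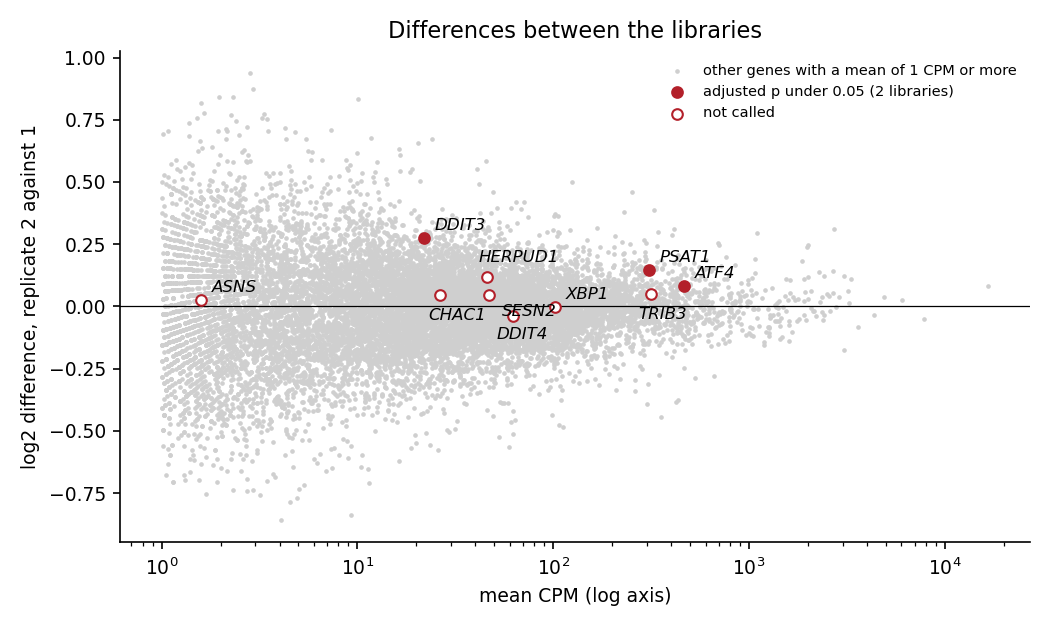
Log2 difference in CPM + 1 between the libraries against mean CPM (log axis), with the 10 genes in red, filled where the exact binomial test gave an adjusted p under 0.05, over all other genes averaging 1 CPM or more in grey. DDIT3, PSAT1 and ATF4 are filled, at 0.27, 0.15 and 0.08, and the other 7 are open.

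The rest of the pathway was described with 10 lists of 98 different genes, of which 95 were detected and 96 tested. Of the 96, 21 were called higher and 5 lower in replicate 2, beside 6.78% and 6.35% of all genes tested. These shares of all genes are the background for the calls in each list below. The median difference of the list genes was 0.02. Levels below are CPM per kilobase of merged exons in replicates 1 and 2, in that order. The highest and the lowest gene of a list are by this measure, and in TPM the ends of some lists were other genes.

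Upstream of ATF4, all 12 genes for eIF2 kinases, the eIF2 alpha subunit, its phosphatase subunits and the exchange factor eIF2B were detected. The haem-sensing kinase EIF2AK1 was the highest at 35.1 and 35.0, and the amino acid sensor EIF2AK4 (GCN2) the lowest at 2.63 and 2.73. In TPM both ends differed. EIF2S1 was the highest at 185 and 183, against 72.5 and 76.9 for EIF2AK1. EIF2AK3 was the lowest at 4.04 and 7.45, against 10.4 and 11.4 for EIF2AK4. PPP1R15A (GADD34), itself induced by ATF4 and a phosphatase subunit that reverses the response, was at 34.0 and 32.3. In this list 1 gene was called, EIF2B3, higher in replicate 2 with a log2 difference of 0.17 (adjusted p of 0.0312, edgeR).

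Of 7 genes for the ER sensors and their processing, 6 were detected. RTCB, the ligase that joins XBP1 after IRE1 has cut it, led with 31.4 and 31.5. ERN1, which encodes IRE1, was at 1.06 and 1.25, and ATF6 was the lowest detected at 0.71 and 0.77. ERN2, the IRE1 of gut epithelium, had 5 and 8 reads and was not detected. In this list edgeR called 0 genes, the lowest adjusted p being 0.119 in the protease gene MBTPS1 (exact binomial test).

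All 10 bZIP partners and relatives of ATF4 were detected. CEBPG, a dimer partner of ATF4, was at 23.2 and 22.8, and CEBPB at 21.4 and 24.1. NUPR1, a stress-induced cofactor, was the lowest at 0.277 and 0.318. Its prediction from TPM was higher, with log2 ratios of reads to prediction of -3.61 and -3.31. CEBPB and ATF3, a repressor induced by ATF4, were called higher in replicate 2, with log2 differences of 0.17 and 0.20 (adjusted p of 0.0412 and 0.0263, edgeR).

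Among 9 further genes of amino acid and one-carbon synthesis, SHMT2, the mitochondrial serine hydroxymethyltransferase, was the highest at 116 and 129 and GPT2 the lowest at 5.72 and 6.20. SHMT2, MTHFD2 and PSPH were called higher in replicate 2, with log2 differences of 0.15, 0.17 and 0.15, and 0 were called lower. Of all genes tested, 6.78% were called higher and 6.35% lower. PSPH acts right after PSAT1 in serine synthesis. CBS, of transsulfuration, had log2 ratios of reads to the prediction of -2.69 and -2.71. All 8 amino acid transporters were detected, from SLC7A5 at 71.1 and 70.5 to SLC7A11, the cystine carrier, at 3.68 and 3.40. In TPM the highest was SLC3A2 at 241 and 229, against 104.6 and 104.8 for SLC7A5, and SLC7A11 was again the lowest. Of the transporters edgeR called 0, the lowest adjusted p being 0.0698 in SLC3A2 (exact binomial test).

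All 12 cytosolic aminoacyl-tRNA synthetases were detected, from GARS1 at 159 and 166 to CARS1 at 18.1 and 19.4. Both ends differed in TPM, where WARS1 was the highest at 460 and 505 and IARS1 the lowest at 74.4 and 85.9. Of the 12 synthetases, 6 were called higher and 0 lower in replicate 2, beside 6.78% and 6.35% of all genes tested. The called genes had log2 differences from 0.06 in MARS1 to 0.15 in IARS1. In replicate 1 they had from 4377 reads in CARS1 to 15948 in GARS1, counts at which differences this small were called. Of 6 secreted and other stress targets, 5 were detected, STC2 being the highest at 17.9 and 19.4. VLDLR was the lowest detected at 0.838 and 0.791, and in replicate 1 its matched transcripts were listed at 0 TPM. FGF21, a hormone induced by ATF4 in liver, had 14 and 10 reads and was not detected. STC2 and TXNIP were called higher in replicate 2, with log2 differences of 0.12 and 0.20.

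The highest levels in any of the lists were those of ER chaperones and folding enzymes, all 17 of which were detected. CALR (calreticulin) led with 607 and 624, and ERO1B was the lowest at 1.21 and 1.08. In this list 4 genes were called higher (CALR, CANX, PDIA3 and P4HB) and 3 lower in replicate 2 (HSPA5, DNAJB11 and SDF2L1). The shares of all genes tested were 6.78% and 6.35%. In the list SDF2L1 was the most changed, with a log2 difference of -0.19. PDIA3 and PDIA4, protein disulphide isomerases, shared the pattern of ATF4: their reads exceeded the prediction from TPM by log2 ratios of 4.89 and 4.73 for PDIA3 and of 3.20 and 3.47 for PDIA4. Both had 0 exon bases shared with another gene on their strand.

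Of 10 genes of ER-associated degradation, in which HERPUD1 acts, 9 were detected, from EDEM2 at 43.8 and 47.7 to DERL2 at 3.33 and 2.89. DERL3 had 9 and 8 reads and was not detected. EDEM2 was called higher and EDEM3 lower in replicate 2, with log2 differences of 0.12 and -0.18.

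**Figure D5:**
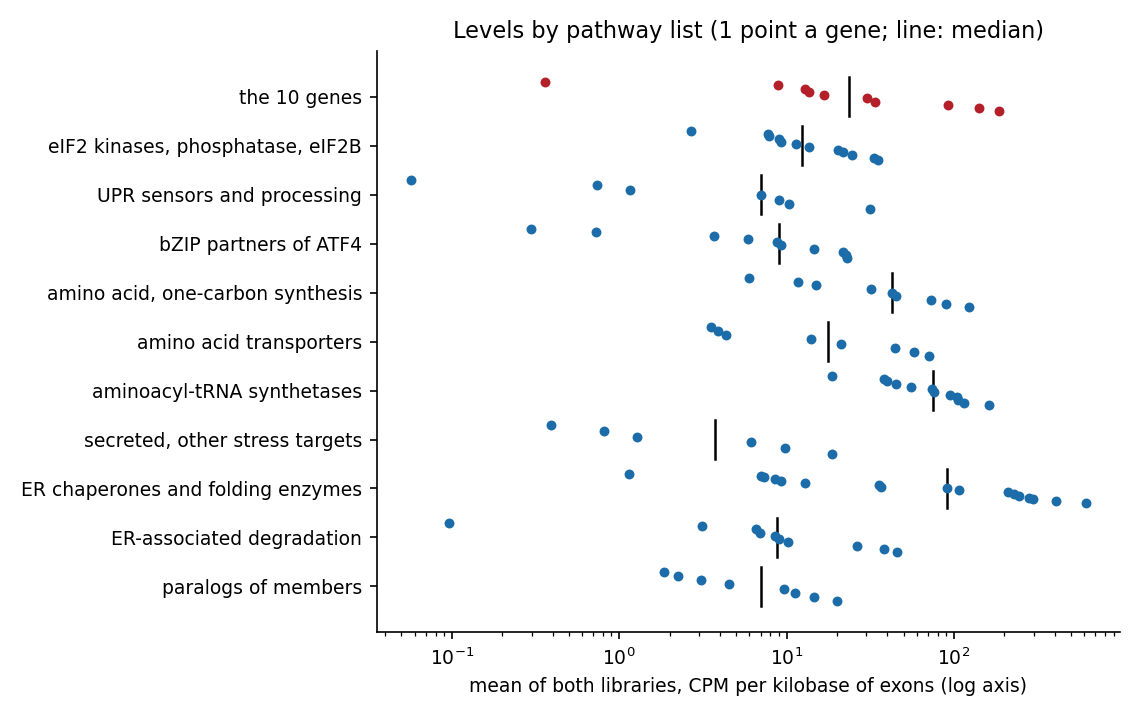
Mean CPM per kilobase of merged exons over both libraries (log axis) for the 10 genes (red) and the genes of each pathway list (blue), 1 point a gene, with the list's median as a line. The aminoacyl-tRNA synthetases and the ER chaperones have the highest medians at 75.3 and 91.4, and ERN2 and DERL3 are the lowest points.

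Last, the members were set beside their paralogs per kilobase. TRIB3 was 18.5 and 22.4 times TRIB1, and 46.7 and 36.6 times TRIB2, in replicates 1 and 2. TRIB1 was at 4.88 and 4.17 CPM per kilobase, and TRIB2 at 1.93 and 2.55. TRIB2 was called higher in replicate 2, with a log2 difference of 0.37 (adjusted p of 0.0207, edgeR). With TPM the ratios of TRIB3 were 24.1 and 27.4 to TRIB1, and 57.1 and 40.8 to TRIB2.

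SESN2 was 7.46 and 7.36 times SESN3. It was 1.26 and 1.18 times SESN1 per kilobase, but 0.658 and 0.632 times SESN1 in TPM, so the order of SESN1 and SESN2 depended on the table. CHAC1 was 4.70 and 3.81 times its paralog CHAC2. DDIT4 was 1.44 and 1.58 times DDIT4L. HERPUD1 was 0.909 and 0.945 times HERPUD2 per kilobase and 2.50 and 2.96 times in TPM. ATF4 was 12.4 and 12.98 times ATF5. ATF5 is another bZIP factor under translational control, and with the TPM listed the order was the reverse, ATF5 being 6.05 and 4.21 times ATF4. Of the 8 paralogs, SESN1 and TRIB2 were called higher and DDIT4L lower in replicate 2.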

How the data were processed

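Polyadenylated RNA of 2 libraries of 1 group was measured. Trim Galore 0.6.10, STAR 2.7.11a, Salmon 1.10.2 and DESeq2 on GRCh38 are named in the submitters' processing notes, with no role. The deposited transcript table holds TPM made by the authors. The deposited gene table is named CPM, but its signal is reads divided by 1 factor per library: 100% of values above 0 were whole multiples of the value of 1 read (1.02 and 1.12; tolerance 0.001 reads), and whole reads were recovered. The headers do not name the identifier column, and their names were matched to the value columns; 0 columns were left unused. The annotation and the strand setting of the counting are not given in the sources used here.

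Gene assignments of transcripts come from GENCODE 29, matched on unversioned identifiers, which held 201667 of 251955 transcripts and 94.8% of TPM in each library. Predicted CPM is TPM times transcript length, scaled so that genes found in both tables sum to the CPM total of a whole library. Merged exons, overlaps, leaders and coordinates come from GENCODE 29 (GRCh38), promoters from RefSeq. The exact binomial test used edgeR 4.0.16 (TMM sizes, filterByExpr, threshold 0.05). A count of 0 allows up to 3 reads, 0.124 CPM in replicate 1 and 0.135 CPM in replicate 2. Motif search, test and ratios were tested on simulated data. Members and lists were chosen with earlier results of these data known. Named genes were the members, checks and paralogs, and of each list the highest, the lowest detected and the undetected gene, those called with a log2 difference of at least 0.3, and those over 4-fold from the TPM prediction in both libraries. PPP1R15A, ERN1, MBTPS1, SLC3A2 and the called genes with smaller differences were named after their values were seen. Alternatives covered library size, length, prediction, transcript type, pseudocount, filter, normalization, detection threshold and motif.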

Additional observations from a re-analysis of the deposited data

How the results depend on the processing

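No paired analysis was possible because all libraries belong to 1 group. Without either replicate, a single library is left and a difference between replicates has no value. Detection of all 10 genes, the 2 genes over 4-fold apart between the tables, the 3 members called and the count of calls over all genes (2008, and 1713 to 1995 under the alternatives) kept within 1.5 times. So did the 8 genes led by a single transcript (8 to 9 without either replicate) and the 95 list genes detected (98 at 0.1 CPM and 92 at 5 CPM). Log2 ratios of reads to the prediction, as means of both libraries, moved by more than the replicate SD in 14 recalculations and by less in 26. The 26 include every recalculation without 1 of the replicates. Leaving out 1 of 2 libraries moves their mean by less than their SD by construction, so those recalculations do not measure stability. All 14 that moved came from the shortened transcript length or from the centring. Centring on genes without exonic overlap turned the sign of 6 small ones: SESN2 (0.14 to -0.01), PSAT1 (0.13 to -0.03), HERPUD1 (0.10 to -0.05), DDIT4 (0.08 to -0.08), XBP1 (0.07 to -0.09) and CHAC1 (0.01 to -0.14). ATF4 (5.45) and ASNS (-6.90) kept theirs. The members' order changed too. With TPM summed per gene 5 of the 10 kept their place, and with the length of the longest transcript 8 did, where SESN2 and HERPUD1 exchanged places. CARE matches fell from 3 genes to 0 with T as the ninth base, and ERSE-II matched 1 gene; both are different letters by construction. The replicate difference of DDIT4, -0.04, was 0.0056 with TPM summed per gene. It was not called on reads, no test was run on TPM, and the cause was not tested. Depth limits ASNS, whose 38 reads leave an interval of 1.15 to 2.16 CPM.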
